A study of Mus musculus with 8 samples.

Results

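The comparison set nascent transcription in mouse induced pluripotent stem cells 1 h after release from a mitotic arrest (early G1) against the same cells in the arrest. It drew on 4 of the 8 PRO-seq samples of the study, 2 mitotic and 2 released for 1 h, and on every one of the 14861 genes in the deposited table. In PRO-seq, nuclei are isolated and polymerases already at work on a gene add a few labelled nucleotides to the RNA they are making, so the signal reads ongoing transcription rather than RNA abundance. All cells were 1 clonal line carrying the FUCCI2 cell-cycle reporter, grown on irradiated feeder cells in serum with LIF and 2i, the pair of MEK and GSK3 inhibitors. The mitotic samples had been held for 6 h in nocodazole at 200 ng/ml, a drug that depolymerises microtubules, and collected by shake-off. The released samples had the same arrest and then 1 h in fresh medium. Released cells sampled at 3 h (late G1) and untreated asynchronous cells, 2 samples each, are used only to place the levels.

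The table holds 1 combined column for each group, so no difference below has a replicate check, an SD or a p-value, and the sequencing depth is unknown. Signal is in the authors' normalized units throughout. A fold is the early G1 value divided by the mitotic value of the same gene. Folds were read for the 13793 genes with a mean of both columns of at least 0.5 and no value of exactly 0. That mean is set mostly by the early G1 value, so for a list that lost members the genes kept are not all of it, and counts over genes kept are descriptions.

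When cells enter mitosis, chromosomes condense, most sequence-specific factors and RNA polymerase II leave the chromatin, and transcription falls to a low level. As cells divide, the kinase activity of CDK1 with cyclin B drops, the nuclear envelope re-forms, and the polymerase returns to genes. In pluripotent cells this return also has to restore the transcription of the factors that hold the cell's identity.

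Early G1 signal was higher than mitotic signal at 13786 of the 13793 genes and lower at 7. The median signal of these genes was 0.545 in mitosis and 13.1 in early G1, and the median fold was 23.4. The middle of the distribution was narrow: the 25th percentile of the fold was 16.5 and the 75th was 31.6, while the 1st was 4.41 and the 99th 94.0. With a pseudocount of 0.1 added to both columns, 13765 genes (99.8%) had an early G1 signal of 2 times the mitotic one or more, and 1 gene (0.00725%) had 2 times less or lower. The size of this general difference rests on the authors' scaling of the columns, whose totals were 16863 in mitosis and 361203 in early G1. Set to equal medians, the same columns gave 725 genes past 2-fold upward and 1635 past 2-fold downward. For that reason genes are placed against the median gene from here on, since multiplying a column by 1 factor leaves the order of the folds as it was. In bulk samples, fewer transcribing cells and less transcription per cell cannot be told apart.

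On that scale, 607 genes (4.40%) lay at least 2-fold above the median gene and 1957 (14.2%) at least 2-fold below it, with the pseudocount. A pseudocount pulls weak genes down, so folds of single genes and medians of lists are given without one. It also raises the 14.2%: without it 1576 genes lay at least 2-fold below the median gene and 855 at least 2-fold above. A list of strong genes set beside the 14.2% or the 4.40% is therefore not compared with genes of like level. The genes kept their order from mitosis to early G1 to a large extent, with a Spearman correlation of 0.895 across the 13793 genes, which are not independent replicates.

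**Figure D1:**
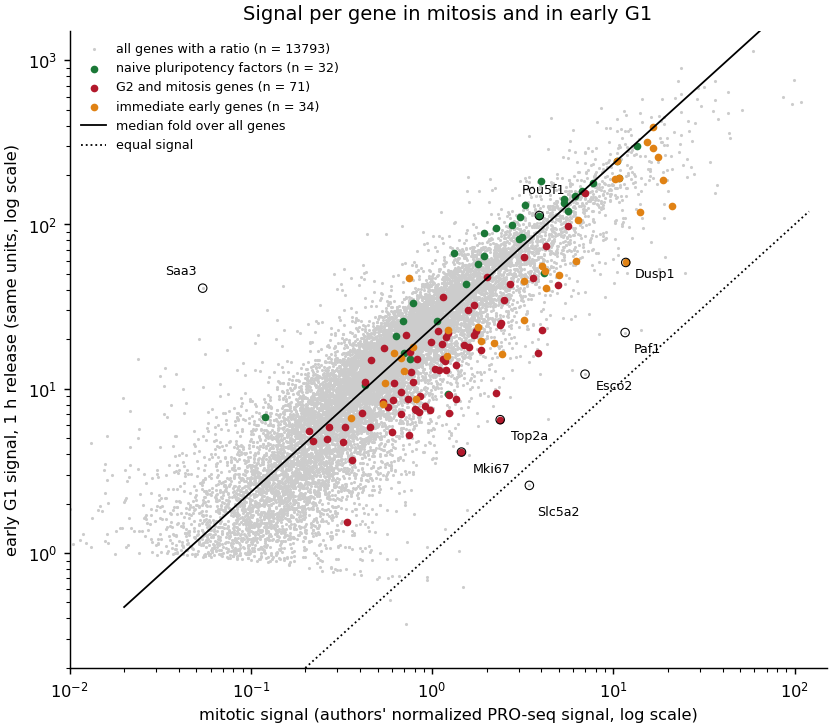
Each point is 1 of 13793 genes, with mitotic signal on the x axis and early G1 signal on the y axis, both in the authors' normalized units on log scales. The solid line is the median fold of 23.4 and the dotted line is equal signal; most G2 and mitosis genes (red) and immediate early genes (orange) lie under the solid line, and most naive pluripotency factors (green) lie on or above it.

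Members of 40 gene lists cover 1910 of the genes with a fold. The list with the lowest median fold was that of the G2 and mitosis genes, which encode cyclins, kinases and chromosome proteins used in the next division. Its 71 members had a median fold of 13.2, against 23.4 over all genes, and 64 of them lay under 23.4. With the pseudocount, 21 of the 71 (29.6%) were at least 2-fold below the median gene and 0 were at least 2-fold above it, beside 14.2% and 4.40% of all genes. Promoters of such genes are known to be held off in G1 by the DREAM complex, which binds a short element called CHR, and to be driven later in the cycle by NF-Y at CCAAT boxes. The promoters below are those of Top2a, Mki67 and Cenpa, the members with the lowest folds whose window was matched, and of Plk1. Each runs from 150 bases before to 50 after the RefSeq start in GRCm38.p6, and capitals mark the CCAAT box (ATTGG when read from the other strand) and the CHR, searched as TTTGAA on one strand and as TTCAAA on the other. Top2a lies at chr11:99024140-99024339 on the minus strand, Mki67 at chr7:135716330-135716529 on the minus strand, Cenpa at chr5:30666736-30666935 on the plus strand and Plk1 at chr7:122159285-122159484 on the plus strand.
Top2a: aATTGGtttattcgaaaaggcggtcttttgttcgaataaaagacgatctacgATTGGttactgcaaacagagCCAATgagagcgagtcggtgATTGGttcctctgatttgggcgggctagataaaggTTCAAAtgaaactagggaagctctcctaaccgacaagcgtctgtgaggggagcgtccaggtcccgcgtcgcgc
Mki67: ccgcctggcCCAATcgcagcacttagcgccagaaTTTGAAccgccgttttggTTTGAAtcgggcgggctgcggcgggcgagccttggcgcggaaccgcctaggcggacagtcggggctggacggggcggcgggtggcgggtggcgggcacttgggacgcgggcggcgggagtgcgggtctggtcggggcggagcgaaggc
Cenpa: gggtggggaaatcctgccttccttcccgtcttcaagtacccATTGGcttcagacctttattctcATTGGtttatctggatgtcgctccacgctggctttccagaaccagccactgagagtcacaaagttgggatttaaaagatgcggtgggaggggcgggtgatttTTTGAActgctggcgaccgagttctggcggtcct
Plk1: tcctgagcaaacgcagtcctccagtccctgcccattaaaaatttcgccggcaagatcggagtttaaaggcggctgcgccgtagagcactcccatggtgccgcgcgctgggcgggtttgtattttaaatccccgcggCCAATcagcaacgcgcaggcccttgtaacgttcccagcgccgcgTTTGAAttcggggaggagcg
Every one of these 4 windows holds both elements, and their letters do not overlap each other. In Cenpa and Plk1 the TTTGAA lies after the RefSeq start, which for Plk1 is 73 bases from the start given by the authors. Plk1 was not among the members with the lowest folds, so the 4 windows are picked examples.

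Promoter windows of 250 bases before to 50 after the start were matched for 57 of the 71 G2 and mitosis genes. CCAAT or ATTGG was present in 45 of them (78.9%), beside 38.7% of the 9790 windows matched over all genes with a fold. TTTGAA or TTCAAA was present in 37 (64.9%), beside 11.1% of all windows. Within the list TTTGAA or TTCAAA did not separate the members: those with it had a median log2 ratio 0.64 below the median gene, and those without it 0.67 below. For CCAAT or ATTGG the median was 0.70 below in the 45 members with it and 0.34 below in the 12 without. Over all windows CCAAT or ATTGG went the other way, with a median fold of 24.1 with it and 23.4 without. Across all 9790 windows the median fold was 22.6 with TTTGAA or TTCAAA and 23.8 without. These are matches of letters and not sites of binding.

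Top2a, which encodes the topoisomerase that untangles chromosomes, had a signal of 2.37 in mitosis and 6.48 at 1 h of release, beside 12.5 at 3 h and 76.3 in asynchronous cells. Its fold of 2.73 was the lowest of the list, and its early G1 signal was 8.49% of the asynchronous signal. Mki67, the proliferation marker that coats mitotic chromosomes, went from 1.45 to 4.12, with 22.8 in asynchronous cells. The centromeric histone gene Cenpa had 2.25 and then 9.47 (fold 4.21), and Cdca3, a trigger of mitotic entry, 3.82 and then 16.6 (4.35). Cdc25b encodes a phosphatase that activates CDK1, and its signal was 0.341 and then 1.53. Ccnb1 (cyclin B1) went from 4.05 to 22.7, a fold of 5.6. Aurkb, the kinase of the chromosomal passenger complex, went from 1.24 to 7.09, and Plk1, a kinase of spindle assembly, from 0.844 to 7.17 (fold 8.50). All of these were higher in early G1 than in mitosis, but by less than the median gene.

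Not all members of the list lagged as far. Over the median fold of 23.4 lay 7 of the 71, with a highest fold of 32.5, and Cep55 and Lin37 lay a little under it. Cep55, needed for the final cut between daughter cells, went from 3.20 to 62.9, a fold of 19.7, and was at 50.7 in asynchronous cells. Lin37, a subunit of the DREAM complex itself, had a fold of 21.1 and a signal of 22.6 in early G1 beside 22.2 in asynchronous cells; it overlaps Hspb6 in the annotation. Over the 71 members the median early G1 signal was 61.9% of the asynchronous signal, while over the 13761 genes with a value above 0 in asynchronous cells it was 127%.

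The early cell-cycle genes were closer to the median gene. The 25 genes of the G1 cyclin and CDK inhibitor list, which also holds E2F genes, Rb1, Rbl1 and Cdk6, had a median fold of 21.2. With the pseudocount 4 (16%, close to the 14.2% of all genes) were at least 2-fold below the median gene and 0 above. E2f2 and Cdk6 were among the 4. E2f2, an activator of S-phase genes, went from 0.301 to 1.92 and had the lowest fold, 6.38. Ccnd1 (cyclin D1) went from 1.82 to 30.8 (fold 17) and Ccne1 (cyclin E1) from 0.614 to 9.09 (14.8). Of 55 DNA replication genes, 37 had folds over 23.4 and the median was 25.7. Pole3, a subunit of DNA polymerase epsilon, was the highest of them, at 0.187 in mitosis and 21.8 in early G1. Cdc6, which loads the replicative helicase, went from 0.376 to 19.6 (fold 52.3), while the histone chaperone gene Chaf1b went from 1.77 to 14.7 (8.28). The median of the replication genes thus lay close to the median gene, 0.13 above it on the log2 scale. Against genes of like level in late G1 and asynchronous cells it lay 0.07 above. The mitosis genes lay well under the median gene, and that difference between the lists has no test.

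**Figure D2:**
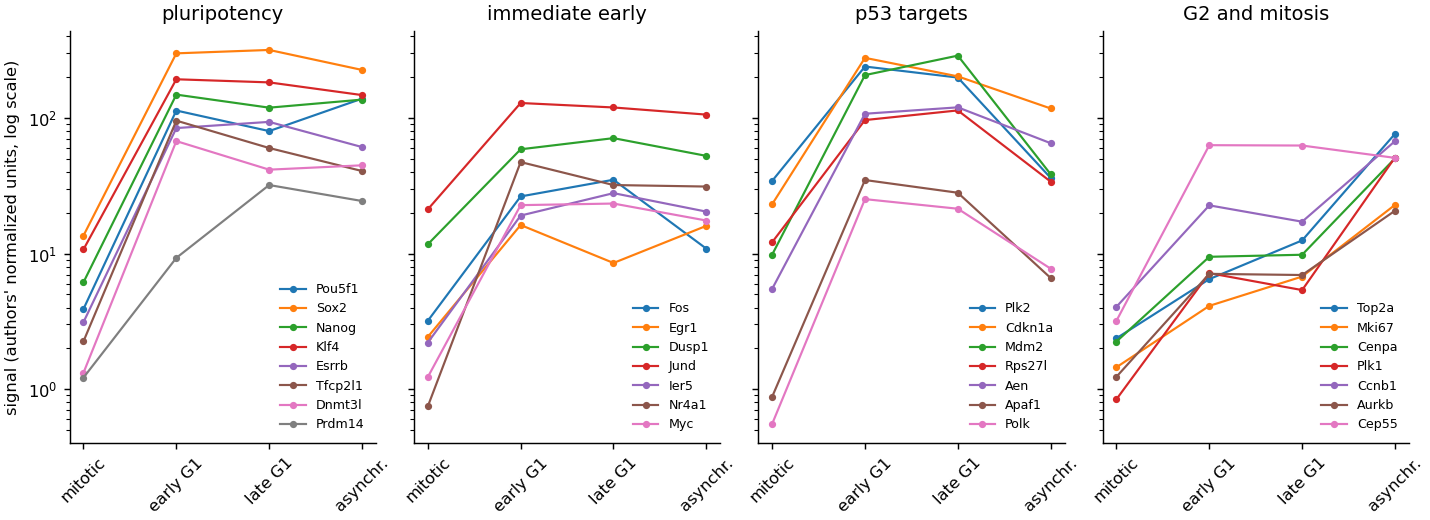
Signal of members of 4 lists in each of the 4 columns, in the authors' normalized units on a log scale, with 1 line per gene and 1 combined value per point. From mitosis to early G1 every line goes up; the G2 and mitosis lines other than Cep55 then stay well under their asynchronous values, such as 6.48 beside 76.3 for Top2a, and the p53 target lines stand above theirs, such as 239 beside 36.1 for Plk2.

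The list with the next lowest median was that of the immediate early genes, which growth factors and stress induce without new protein synthesis and many of which encode short-lived transcription factors. Its 34 members had a median fold of 14.3, and 31 of them lay under 23.4. With the pseudocount 8 of 34 (23.5%) lay at least 2-fold below the median gene and 1 (2.94%) at least 2-fold above, beside 14.2% and 4.40% of all genes. The promoter of Fos is shown because it holds a pair of elements that were more frequent in this list than in all windows. It lies at chr12:85473740-85473939 on the plus strand, and capitals mark the core of a cyclic AMP response element (TGACGT) and, nearer the start, the box of letters TATAAA.
Fos: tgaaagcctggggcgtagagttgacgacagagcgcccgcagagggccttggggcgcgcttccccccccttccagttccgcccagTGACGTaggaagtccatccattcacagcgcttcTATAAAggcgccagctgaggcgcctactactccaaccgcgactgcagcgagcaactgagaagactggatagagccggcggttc
TATAAA or TTTATA was present in 8 of the 26 matched windows of immediate early genes (30.8%), beside 6.73% of all windows. TGACGT or ACGTCA, which is contained in the full element TGACGTCA, was present in 9 (34.6%), beside 12.1% of all windows. Over all genes the median fold was 21.5 with TATAAA or TTTATA and 23.8 without, and 25 with TGACGT or ACGTCA and 23.4 without. Within the list the order was the other way for both: the median log2 value relative to the median gene was -0.20 with TATAAA or TTTATA and -0.53 without, and -0.60 with TGACGT or ACGTCA and -0.23 without.

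Dusp1, a phosphatase that switches off MAP kinases, had the lowest fold of the list, 5.02, with 11.7 in mitosis and 58.7 at 1 h, beside 70.9 at 3 h and 52.5 in asynchronous cells. Its early G1 signal was thus already above the asynchronous one, and its mitotic signal was 22.3% of it. Jund, a subunit of the AP-1 transcription factor, went from 21.2 to 129 (asynchronous 106), and Fos, its partner, from 3.19 to 26.4 (asynchronous 10.9, late G1 35.0). Egr1, a zinc finger activator, had 2.43 and then 16.2, beside 16.0 in asynchronous cells. In these 4 genes a low fold went with an early G1 signal above the asynchronous level. Such a level was usual: the median early G1 signal was 127% of the asynchronous one over all genes and 130% over this list. For the G2 and mitosis genes the median was 61.9%. Nr4a1, an orphan nuclear receptor gene, stood apart with 0.747 in mitosis and 47.3 in early G1, a fold of 63.3. Myc went from 1.23 to 22.7 (fold 18.5) and Junb from 10.2 to 190 (18.7).

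Targets of p53, the stress-responsive factor that arrests or kills damaged cells, combined low folds with high early G1 levels. The 35 members had a median fold of 16.6, 24 of them lay under 23.4, and their median early G1 signal was 236% of the asynchronous one. Plk2, a kinase of the stress response, went from 34.3 in mitosis to 239 in early G1, with 198 in late G1 and 36.1 in asynchronous cells. Psrc1, a spindle protein gene, went from 19.0 to 133 (fold 6.98) and Rps27l from 12.1 to 96.4 (7.95). Cdkn1a, which encodes the CDK inhibitor p21, went from 23.1 to 277, and Mdm2, which marks p53 for destruction, from 9.81 to 207 (fold 21.1). Other targets were well above the median gene in fold. The highest was Trp53i11, at 0.0765 and then 23.7 (309), with 18.3 in late G1 and 26.0 in asynchronous cells, so its early G1 signal was not above the asynchronous one. Apaf1, the scaffold of the apoptosome, went from 0.879 to 34.8 (39.7; it overlaps Ikbip), and the translesion polymerase gene Polk from 0.555 to 25.2 (45.4). With the pseudocount 3 of the 35 (8.57%) lay at least 2-fold below the median gene and 2 (5.71%) at least 2-fold above, beside 14.2% and 4.40% of all genes. The 14.2% includes many weak genes, whereas these targets were strong, with a median early G1 signal of 60.8. Trp53 itself went from 7.39 to 143, a fold of 19.4, and Max, the partner of MYC, from 0.745 to 32.7 (43.9).

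Genes of the amino acid and unfolded protein responses, many driven by ATF4, also had a low median. Their 34 members had a median fold of 17.2, and 27 lay under 23.4. With the pseudocount 7 (20.6%, beside 14.2% of all genes) were at least 2-fold below the median gene and 1 at least 2-fold above. Stc2, a secreted glycoprotein gene, went from 1.01 to 5.76 with 36.6 in asynchronous cells, and Shmt2, the mitochondrial serine enzyme, from 1.61 to 9.96 with 46.8; Shmt2 overlaps Ndufa4l2. Dnajb9, a chaperone of the endoplasmic reticulum, went from 2.91 to 19.0. Creb3l3 was the exception, at 0.419 and then 50.4 (fold 120), with 3.00 in late G1 and 1.42 in asynchronous cells, so its early G1 value is the highest of its 4 by far.

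The factors that hold the naive pluripotent state were near or above the median gene. Of 33 listed, 32 had a fold; their median was 26.9, and 23 lay over 23.4. With the pseudocount 5 (15.6%) were at least 2-fold above the median gene, beside 4.40% of all genes, and 1 at least 2-fold below. The 4.40% is taken over many weak genes, which the pseudocount pulls down. These factors were strong, with a median mitotic signal of 2.88 beside 0.545 over all genes, so the 2 shares are not of like level. Without the pseudocount the list median lay 0.20 above the median gene on the log2 scale. The core factors were close to the median gene itself. Pou5f1 (OCT4) went from 3.90 in mitosis to 113 in early G1, a fold of 29.0, with 79.95 in late G1 and 139 in asynchronous cells. Nanog went from 6.14 to 148 (24.2), Sox2 from 13.6 to 299 (22), Esrrb from 3.12 to 84.2 (26.9) and Klf4 from 10.7 to 193 (17.9).

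The largest folds of the list belonged to other members. Tcl1, a cofactor of the kinase AKT that was chosen for naming once its value was known, had the highest, 56.3, from small values of 0.120 and then 6.75. Dnmt3l, a cofactor of DNA methyltransferases, went from 1.32 to 67.5 (fold 51.0) with 44.7 in asynchronous cells; it overlaps Aire. Fgf4, the growth factor that acts on the same cells through MEK, went from 3.98 to 185 (46.4). Sall4, a zinc finger factor, went from 1.93 to 88.8 (46.0), Tfcp2l1, an effector of LIF signalling, from 2.26 to 95.5 (42.3), and Zscan10 from 3.26 to 131 (40.04). For Tfcp2l1 and Zscan10 the early G1 value lay above the asynchronous values of 40.6 and 79.8. Prdm14, a repressor of the primed state, was the one member at least 2-fold below the median gene: it had 1.22 in mitosis and 9.29 at 1 h, beside 32.0 at 3 h and 24.4 in asynchronous cells. So the list holds genes at both ends, and most of it lies in the upper part of the range.

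Among the 15 measured genes of the formative and primed states, which follow the naive state in development, the median fold was 23.5. Otx2 (0.230 and then 13.4, fold 58.5) was highest, and Pou3f1 (1.38 and then 11.7, fold 8.52) was lowest. Feedback genes of the LIF, WNT and BMP pathways spread as widely, with a median of 22.2 over 32 genes. Sp5, a WNT target, went from 0.523 to 38.2 (fold 73.1), with 12.6 in late G1 and 9.47 in asynchronous cells. The BMP targets Id1 to Id4 were all low: Id1 went from 8.37 to 21.5 (2.57), Id2 from 2.20 to 20.8 (9.44), Id3 from 5.98 to 56.6 (9.46) and Id4 from 1.06 to 10.8 (10.1). The early G1 value of Id1 was also under its asynchronous value of 57.2, and Id1 was at 7.12 in late G1.

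**Figure D3:**
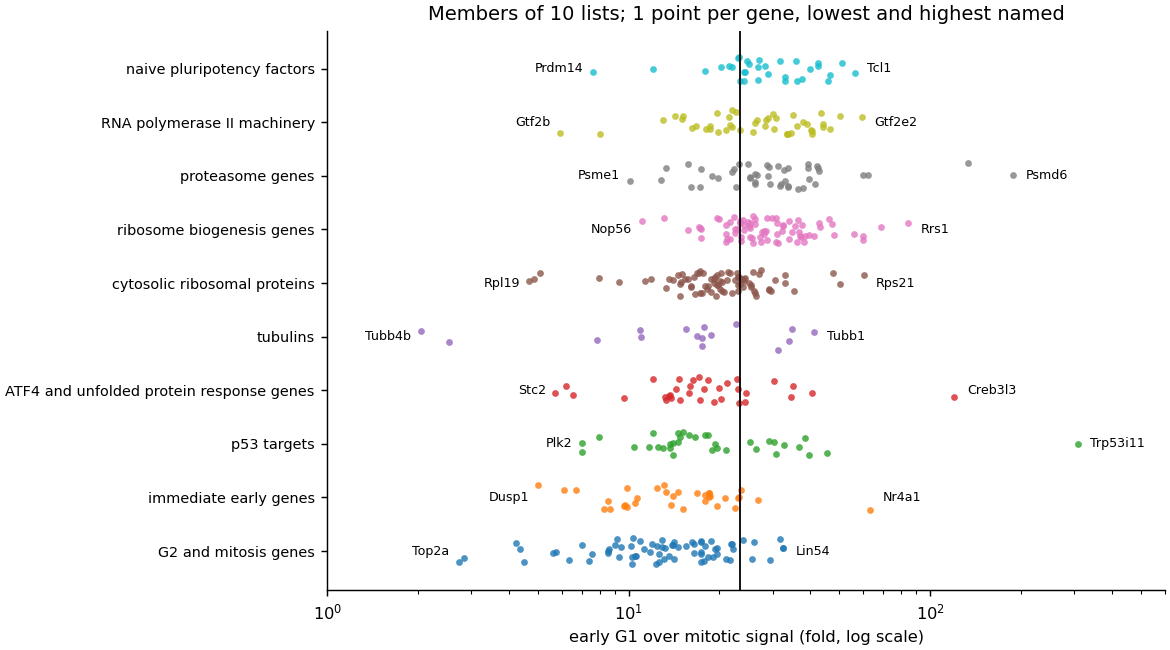
Folds of the members of 10 lists on a log scale, 1 point per gene, with the lowest and the highest member named; the vertical line is the median fold of all genes, 23.4, and vertical position within a list has no meaning. Of the G2 and mitosis genes 64 of 71 lie left of the line and of the ribosome biogenesis genes 57 of 77 lie right of it.

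The transcription machinery itself lay slightly above the median gene. The 46 subunits and general factors of RNA polymerase II had a median fold of 27.5, the 43 genes of polymerases I and III 25.6, the 32 Mediator genes 25.9 and the 39 pause release and elongation factors 26.3. Gtf2e2, a subunit of TFIIE, went from 0.324 to 19.3 (59.6; it overlaps Smim18) and Polr2h from 0.298 to 14.9 (50.1). Gtf2b, which encodes TFIIB, was the lowest, at 1.42 and then 8.40 (5.91). Regulators of the kinase P-TEFb, which frees paused polymerase, were among the low genes: Hexim1, its inhibitor, went from 11.6 to 109 (9.37) and Brd2, a BET protein gene, from 43.3 to 361 (8.33). Paf1, a subunit of the elongation complex of that name (chromosome 7, start 28392963), went only from 11.6 to 22 (1.89), with 54.7 in asynchronous cells. Med11 of the Mediator head (chromosome 11, start 70451933) went from 19.3 to 63.7 (3.30), with 201 in late G1. These low members had mitotic signals well above the median mitotic signal of 0.545.

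RNA processing genes differed by kind. The 32 Integrator and 3′ end processing genes had a median fold of 27.9, and 24 lay over 23.4; Ints3 went from 0.873 to 36.0 (41.3), and Ints13 from 1.94 to 12.7 (6.55). The 63 splicing factors had a median of 23.0. Snrpd2, a core protein of the spliceosome, went from 0.359 to 47.3 (fold 132), with 23.6 in late G1 and 10.5 in asynchronous cells. The splicing regulators Srsf3 (19.8 and then 186, fold 9.38), Srsf2 (24.3 and then 230, fold 9.45) and Hnrnph1 (8.05 and then 67.0, fold 8.32) lay low. Srsf2 overlaps Mfsd11.

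Genes for making ribosomes and proteins had some of the highest medians. The 77 ribosome biogenesis genes had a median fold of 27.8, with 57 over 23.4, and with the pseudocount 8 (10.4%) were at least 2-fold above the median gene and 0 below, beside 4.40% and 14.2% of all genes. Utp3, a factor of the small-subunit processome, went from 1.55 to 92.8 (59.8), Rrs1, needed for the large subunit, from 0.150 to 12.7 (84.3), and Heatr1 from 0.525 to 24.2 (46.2). The 22 measured aminoacyl-tRNA synthetase genes, which charge tRNAs, had the narrowest range of the lists in this group: their folds ran from 15.3 (Vars) to 41.7 (Rars), with a median of 28.0. The 52 translation factors had a median of 27.4, from Eif4g3 (0.281 and then 1.27, fold 4.54) to the release factor gene Gspt1 (5.25 and then 257, fold 48.9). Eif1, which selects the start codon, was low as well, at 27.7 and then 202 (7.28).

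The 81 cytosolic ribosomal protein genes, by contrast, had a median fold of 20.1, and 56 lay under 23.4; with the pseudocount their median moved to 0.06 above the median gene. Their mitotic signal was high, with a median of 8. Rps21 went from 3.07 to 185 (60.2), Rps2 from 5.66 to 285 (50.3) and Rps4x from 3.96 to 188 (47.5). Rpl19 (37.4 and then 175, fold 4.68) and Rpl8 (16.1 and then 77.8, fold 4.85) were low, and Rpl19 overlaps Cacnb1. Ribosomal protein genes have many processed copies in the genome, so their values depend on how shared reads were counted, which is not known. The 74 mitochondrial ribosomal protein genes had a median of 23.7.

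The highest median of all 40 lists was that of the proteasome, the protease of ubiquitin-tagged proteins, at 29.1 over 45 genes, with 32 over 23.4. It was the only list that lay at least 0.3 above the median gene on the log2 scale when no pseudocount was used, at 0.31. Psmd6 and Tufm, the mitochondrial elongation factor gene, are shown because both are among the 20 highest genes and hold the letters bound by ETS-family factors. Psmd6 lies at chr14:14120896-14121095 on the minus strand and Tufm at chr7:126487205-126487404 on the plus strand, and capitals mark CCGGAAG.
Psmd6: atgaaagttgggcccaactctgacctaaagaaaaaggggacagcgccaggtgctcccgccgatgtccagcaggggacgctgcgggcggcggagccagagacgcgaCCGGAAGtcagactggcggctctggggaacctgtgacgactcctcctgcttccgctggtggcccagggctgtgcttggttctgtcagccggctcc
Tufm: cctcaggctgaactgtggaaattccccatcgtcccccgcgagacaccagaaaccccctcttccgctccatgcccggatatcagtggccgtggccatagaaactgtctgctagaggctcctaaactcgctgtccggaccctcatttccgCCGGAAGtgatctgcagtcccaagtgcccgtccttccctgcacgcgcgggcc
CCGGAAG or CTTCCGG was present in 14 of 36 matched proteasome windows (38.9%), in 28 of 67 ribosome biogenesis windows (41.8%) and in 18.9% of all windows. Over all genes the median fold was 26.2 with it and 23.1 without, and 27.9 with CGCATGCG (NRF1) and 23.5 without. The ribosomal protein genes held CCGGAAG or CTTCCGG as often, in 25 of 62 windows (40.3%), with folds below the median gene. Psmd6 went from 0.139 to 26.3 (fold 189), with 27.6 in late G1 and 7.61 in asynchronous cells. Psmb8, a core subunit of the immunoproteasome, had a fold of 134 from smaller values (0.0384 and then 5.15). The core subunit genes Psma1 (0.304 and then 18.9) and Psma5 (0.395 and then 23.8) had 62.3 and 60.1, and Psme1, an activator subunit overlapping Emc9, was lowest at 10.1.

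**Figure D4:**
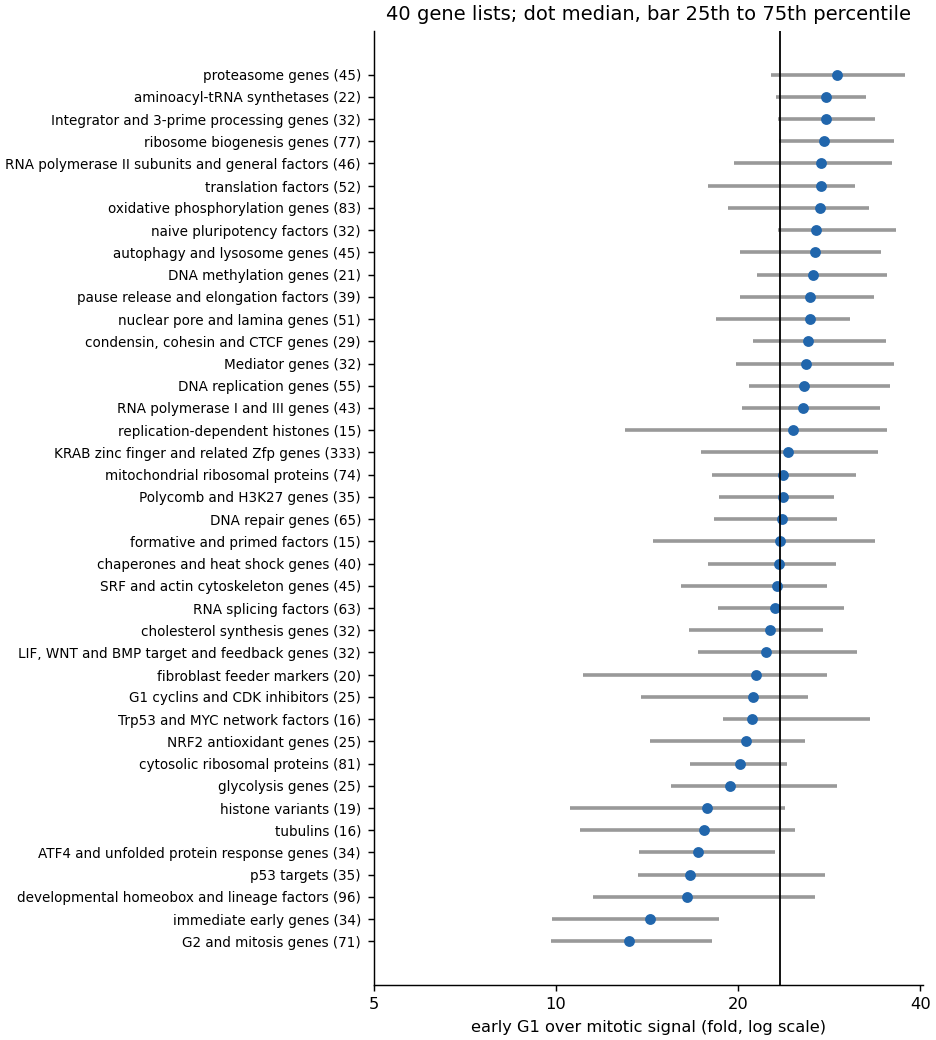
Median fold (dot) and the 25th to 75th percentile (bar) of 40 gene lists on a log scale, with the number of members that have a fold in brackets and the median of all genes, 23.4, as a vertical line. The G2 and mitosis genes (13.2) and immediate early genes (14.3) have the lowest medians, and their bars end left of the line, as does that of the ATF4 list; the proteasome genes (29.1) have the highest median.

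Energy metabolism spread around the median gene. The 83 oxidative phosphorylation genes had a median fold of 27.3, and with the pseudocount 7 (8.43%) were at least 2-fold above the median gene and 3 (3.61%) below, beside 4.40% and 14.2% of all genes. Atp5k, a subunit of ATP synthase, went from 0.233 to 25.1 (107) and Ndufa3, of complex I, from 0.706 to 58.6 (83.0), while Cox6b2, of complex IV, was at 96.4 in mitosis and 540 in early G1 (5.6). The 25 glycolysis genes had a median of 19.4. Eno3, an enolase, went from 0.314 to 43.4 (138; it overlaps Pfn1), and Gpi1 from 0.582 to 26.4 (45.4), whereas Pfkl, the liver phosphofructokinase, went from 2.64 to 25.3 (9.62). Gapdh had 12.4 and then 222 (17.9), and its asynchronous value was 405.

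Genes for chromosome and nuclear structure lay a little above the median gene, with outliers. The 29 genes of condensin, cohesin and CTCF had a median fold of 26.1, and Ctcf itself was near the median gene at 1.01 and then 25.3 (24.9). Esco2, which acetylates cohesin in S phase (chromosome 14, start 65833909), had the lowest fold of the list at 1.76, with 6.98 in mitosis and 12.3 at 1 h, beside 5.54 at 3 h and 8.62 in asynchronous cells. Its mitotic signal was thus close to its asynchronous one. Nipbl, the cohesin loader gene, went from 0.350 to 14.6 (41.8). The 51 nuclear pore and lamina genes had a median of 26.3; Kpna2, an importin, was lowest (5.99 and then 40.1, fold 6.69) and Ahctf1, which seeds pores on chromatin, next (2.89 and then 25.4, fold 8.78; it overlaps Kif28). The list of histone variant genes was lower, with a median of 17.8 over 19 genes. It also holds the histone chaperone genes Asf1a and Asf1b, and Hist3h2a, which is in the replication-dependent list too. With the pseudocount 5 (26.3%, beside 14.2% of all genes) were at least 2-fold below the median gene. Cenpa, also in the G2 and mitosis list, was among them. H1f0 went from 6.37 to 38.0 (5.97) and H2afx, the damage-marking variant, from 26.9 to 224 (8.31). Among 15 replication-dependent histone genes the folds ran from 7.59 (Hist2h3c1) to 66.0 (Hist4h4, 4.38 and then 289), and reads shared between histone copies make single values uncertain.

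Tubulin genes had a median fold of 17.5 over 16 genes, with the gamma-tubulin genes Tubg1 and Tubg2 included. Of the 16, 12 lay under 23.4. With the pseudocount 4 (25%, beside 14.2% of all genes) were at least 2-fold below the median gene, Tubg2 among them. Tubb4b went from 24.9 to 50.8 (2.04), with 21.4 in late G1 and 91.2 in asynchronous cells; it overlaps Fam166a. Tuba1c went from 4.89 to 38.4 (7.86) and Tuba1a from 1.55 to 17 (10.9). Tubulin genes are close copies of each other, so the counting of shared reads bears on these values too. Among 45 genes of the actin cytoskeleton and its regulator SRF the median was 23.2, and Actb had 11.9 and then 166 (14).

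Developmental homeobox and lineage genes, which are silent or weak in pluripotent cells, had a median fold of 16.4 over the 96 of 117 that had a fold, and their early G1 signal had a median of only 4.01. Set against genes of like level in late G1 and asynchronous cells, their median was 0.30 below on the log2 scale, beside a log2 value 0.71 under the median gene with the pseudocount. Markers of the feeder cells were weak. Of 12 defining fibroblast markers, 4 were in the table (Col1a1, Pdgfra, Pdgfrb and Thy1); none was at 0, and their summed signal was 0.474 in mitosis and 7.41 at 1 h, beside 22.9 at 3 h and 17 in asynchronous cells. Over the wider feeder list the median fold was 21.4 for 20 genes, of which 0 were at least 2-fold above the median gene and 6 (30%) at least 2-fold below with the pseudocount, beside 4.40% and 14.2% of all genes. The 7 of 8 defining pluripotency markers in the table summed to 45.1 in mitosis and 1068 in early G1, and none was at 0. The part of feeder RNA in any fold was not tested.

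At the level of single genes, the 20 highest and 20 lowest ratios were taken among genes in the upper part of the mean signal, after setting aside those with predicted or clone names. Apart from the list members already described, the high end held Tusc2, a mitochondrial tumour suppressor candidate (0.328 and then 53.6, fold 163, asynchronous 12.3) and Jsrp1 of muscle (0.289 and then 50.1, fold 174, asynchronous 12), among others. Tufm had 0.683 and then 97.7, a fold of 143, with 39.6 in late G1 and 32.7 in asynchronous cells. In these 3 genes the early G1 value was the highest of the 4 columns. Smim27 went from 1.58 to 194 (123), but it overlaps Topors. The fold of such genes rests on small mitotic values, whose error is not known.

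The low end was taken among genes of high mean signal, so a low fold there requires a mitotic signal of several units. That trait of its genes follows from the selection. Gstp3, a glutathione transferase, went from 17.9 to 53.7 (3.00; asynchronous 17.5), with near-identical copies beside it in the genome. Dio3, a thyroid hormone deiodinase of an imprinted cluster, went from 7.35 to 28.4 (3.87; asynchronous 34.9). Sp1, the activator that binds GC boxes, went from 11.9 to 50.6 (4.25), with 18.7 in asynchronous cells, and the calcium-binding protein gene Cib1 from 36.2 to 154 (4.27), with 62.5. Atpif1, the inhibitor of ATP synthase, went from 10.1 to 43.8 (4.35; asynchronous 82.7). So the low end mixes genes already above their asynchronous level in early G1 (Gstp3, Sp1, Cib1) with genes still under it (Dio3, Atpif1).

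The single gene at least 2-fold lower in early G1 was Ptcd1, a mitochondrial RNA-processing factor (chromosome 5, start 145166957), with 1.47 in mitosis and 0.618 at 1 h, beside 7.92 at 3 h and 14.8 in asynchronous cells; it overlaps Bud31. The other 6 lower genes, chosen for naming once their values were known, were 1810010D01Rik, Gm11492, Lag3, Slc5a2, Clec4g and Gm10097. Slc5a2 was the strongest of them, with 3.44 in mitosis and 2.58 in early G1.

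Some genes were listed at exactly 0 and have no fold. In mitosis 331 genes were at 0, of which 54 were at 0 in early G1 as well and 277 were not. The median early G1 signal of these 277 was 2.45, far under the column median of 11.8, and 44 of them lay above that median. The highest were Nme3 (233 in early G1; it overlaps Mapk8ip3), Adgrb1 (161), Oxa1l (139), Npr1 (127), Rrm2 (118) and Rin1 (114). Nme3 was also at 0 in late G1 beside 148 in asynchronous cells, so a value of 0 is not read here as silence. In the other direction 36 genes were at 0 in early G1 only, led by 4930544D05Rik (11.4 in mitosis) and Map1lc3a (5.36).

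The fold depended on the length and level of a gene only moderately. Over the 13362 genes with an annotated span, the median fold was 19.9 up to 2 kb, 26.7 between 50 and 100 kb and 19.1 above 200 kb. The longest genes were also weak, with a median early G1 signal of 3.42 above 200 kb beside 10.6 between 50 and 100 kb. Relative to genes of like level, the median log2 value was -0.20 above 200 kb and 0.18 between 50 and 100 kb. When genes were ranked by the mean of late G1 and asynchronous signal and cut into 10 groups of equal size, the weakest group had a median fold of 19.9, group 7 had 25.4 and the strongest 21.3. On the log2 scale the weakest group lay 0.94 under the median gene with the pseudocount and 0.24 under it without. Chromosomes differed little: their median folds ran from 22 on chromosome 7 to 26.2 on the X chromosome.

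**Figure D5:**
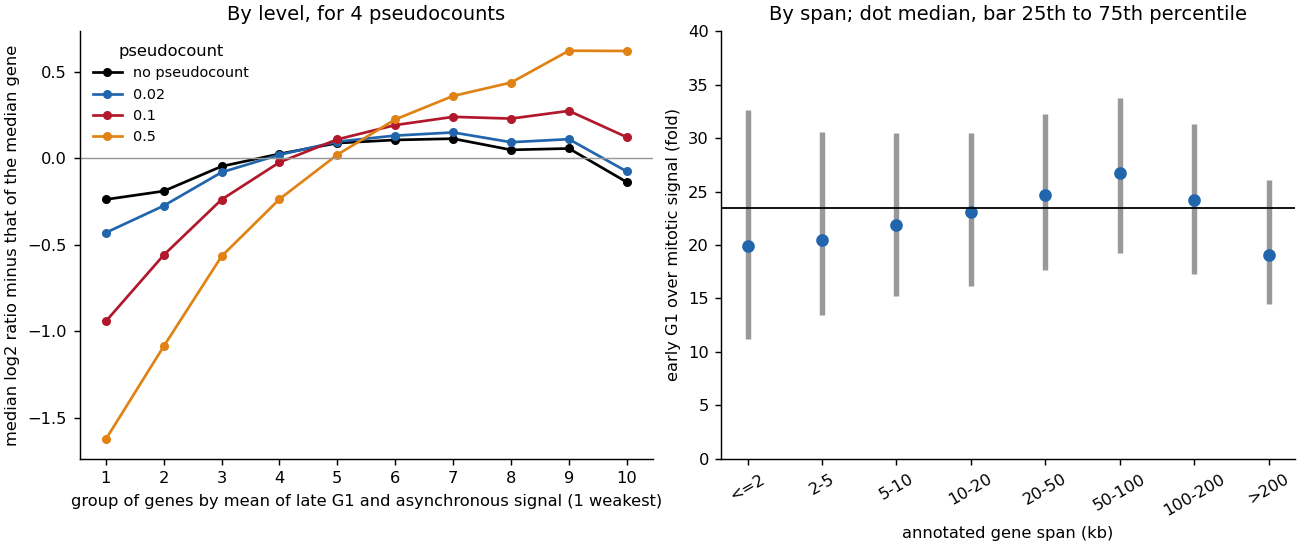
Left, median log2 ratio of early G1 over mitotic signal minus that of the median gene, for 10 groups of genes ranked by the mean of late G1 and asynchronous signal, with 4 pseudocounts. Right, median fold (dot) and 25th to 75th percentile (bar) by annotated gene span, with the median of all genes, 23.4, as a line; without a pseudocount the weakest group lies 0.24 under the median gene, and with 0.1 it lies 0.94 under.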

How the data were processed

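The labels list 2 PRO-seq samples in each of 4 groups. The deposited table gives 1 normalized signal value per gene and group, made by the authors; the sources used here do not give how reads were assigned to genes, how columns were scaled (a spike-in included) or how both samples were combined. The submitters' processing notes name SAMtools, Picard, Bowtie2 and cutadapt and the builds GRCm38 and mm10. The labels do not use the column names early and late G1, which were taken by meaning as the releases of 1 h and 3 h. The table's own gene classes were not used.

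Ratios were taken from the raw columns in Python 3.11.15 with numpy 2.4.6, pandas 2.3.3 and matplotlib 3.10.9. Genes with a mean of both columns under 0.5 (864) or a value of 0 in either (199 in mitosis, 5 in early G1 above that minimum) were left out. A pseudocount of 0.1 was used for counts past 2-fold, and "the median gene" is the median log2 ratio over the genes kept; a fold on that scale understates the change of low genes. With 1 column per group no test was planned or run. The steps were tested on simulated data.

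Symbols were matched to RefSeq (GRCm38.p6) for 14176 genes by name and 203 by synonym, with 482 unmatched, and promoter sequences are RefSeq's. A window was matched for 71.0% of the genes with a fold, under the 80% needed, so a check of base composition was void and motif counts describe matched windows. Overlaps are with RefSeq genes.

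The comparison and the 40 gene lists were chosen with earlier results of these data known. The genes named are the 20 highest and 20 lowest ratios among the stronger genes, up to 6 members of each list farthest from the median gene and up to 2 nearest to it, 18 genes given always, the 6 strongest genes at 0 in 1 column, and genes at least 2-fold lower; members named outside this rule were chosen after their values were seen, and some genes the rule picks are not reported here.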

Additional observations from a re-analysis of the deposited data

How the results depend on the processing

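With 1 combined column per group, neither leaving out a replicate nor a replicate-based error was possible. No paired analysis was possible because the table has 1 column per group, although the labels share replicate letters between groups. The general difference depended on scaling. The median log2 ratio of 4.26 became -0.039 with equal medians, 0.13 with equal totals and 0.054 after quantile normalization, and 3.62 with a pseudocount of 0.5. The count of genes at least 2-fold higher went from 13765 to 725 (equal medians), 1150 (equal totals), 952 (quantile) and, with fewer genes tested, 8230 (no overlapping gene). The count at least 2-fold lower went from 1 to 1635, 1190 and 1235 under these 3 scalings, to 6 with genes at 0 kept, and to 0 with a pseudocount of 0.5, a minimum mean of 2.5 or no overlapping gene. Genes at least 2-fold above the median gene numbered 607, and 943 with a pseudocount of 0.5, 305 with a minimum mean of 2.5 and 360 without overlapping genes. Those at least 2-fold below numbered 1957, and 741 with a minimum mean of 2.5, 1214 without overlapping genes and 1297 relative to genes of like level.

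Lists at least 0.3 above the median gene on the log2 scale numbered 12 with the pseudocount of 0.1. They numbered 1 with a pseudocount of 0.02, with none, with each of the 3 scalings (1, 1 and 1) and relative to genes of like level, 23 with a pseudocount of 0.5, 0 with a minimum mean of 2.5, and 5 by the mean of members. The 1 list was not always the same. With no pseudocount it was the proteasome genes (0.31). Relative to genes of like level it was the naive pluripotency factors (0.33), with the proteasome genes at 0.27. The 6 lists at least 0.3 below numbered 4 to 9 under the alternatives run. Of 200 named genes past 2-fold, 66 moved by more than 1.5 times under some alternative and 0 changed direction. The settings with no pseudocount and with genes of like level were chosen after seeing the data. The depth is unknown, so the error of small mitotic values is too.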

Other observations

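Stress and housekeeping pathways outside those described above lay near the median gene, whose fold was 23.4. The 32 cholesterol synthesis genes had a median fold of 22.6. Hmgcs1, an early enzyme of the pathway, went from 0.904 in mitosis to 41.9 in early G1 (46.4). The 25 antioxidant genes of the NRF2 pathway had a median of 20.6, and Keap1, the sensor that restrains NRF2, went from 2.06 to 14 (6.77) with 58.4 in asynchronous cells. The 40 chaperone and heat shock genes had a median of 23.4, from 10.2 (Hsp90aa1, 21.2 and then 217) to 37.6 (Cct3, 1.21 and then 45.6). The 45 autophagy and lysosome genes had a median of 26.8, with Ctsb, a lysosomal protease gene that overlaps Fdft1, going from 0.85 to 48.7 (57.4).

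The 333 zinc finger genes, many of which encode KRAB repressors of retroelements, had a median fold of 24.2, and with the pseudocount 14 (4.2%) lay at least 2-fold above the median gene and 33 (9.91%) at least 2-fold below, beside 4.40% and 14.2% of all genes. Zfp57, which guards imprinted methylation, went from 14.4 to 578 (39.99). Among 65 DNA repair genes the median was 23.7, and Fancf went from 1.60 to 136 (85.2; it overlaps Gas2). Of 35 Polycomb and H3K27 genes, Kdm6a, an H3K27 demethylase gene, had the highest fold (0.366 and then 19.1, 52.0).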
